A study of Danio rerio with 8 samples.

Results

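GFP-negative cells of the adult zebrafish brain were compared between fish injected with interleukin-4 (IL4) and fish injected with phosphate-buffered saline (PBS). The comparison rests on 4 of the 8 libraries of the series, 2 after IL4 and 2 after PBS, chosen by the labels of the libraries and by no measured value, and it covers all 31388 genes of the deposited table. The fish were Tg(her4.1:EGFP) animals 6 months post fertilization (6 mpf), in which the her4.1 promoter drives GFP in radial glia. Both groups carried this transgene, both received an injection into the brain, and both were sampled 24 hours after it (24 hpi). Brains were dissociated and sorted by flow cytometry, so the GFP-negative fraction is what remains when radial glia are removed, a mixture of many cell types. The labels state neither the IL4 dose, the sex, the number of fish behind a library nor the hour of day at collection. The design text of the series names other injections and another time, and the labels of the libraries were followed here.

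IL4 is a cytokine of type 2 immunity. It binds the IL4 receptor chain, which pairs with the common gamma chain or with the IL13 receptor chain, and the JAK kinases bound to these chains activate the transcription factor STAT6. In mammals, macrophages and microglia exposed to IL4 take up a state with more mannose receptor and arginase and less inflammatory cytokine. The title of the series puts the question: whether IL4 acts on neural stem cells by way of serotonin, its HTR1 receptors, BDNF and the neurotrophin receptor NGFRA. The GFP-negative fraction holds the neurons, glia, immune and vascular cells around those stem cells.

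The 4 libraries held 22135340 and 21458011 counts after PBS and 19944880 and 19242851 after IL4, and the range over the series was 19242851 to 26582271. Levels are given as CPM, the usual count scaled to library size, here with TMM factors, and changes as log2 fold change of IL4 against PBS ± SE with n = 2 against 2. The threshold for a pass was an adjusted p below 0.05 in edgeR's quasi-likelihood test with Benjamini-Hochberg adjustment over all 20508 genes tested. Only genes that passed are said to rise, fall or change. Groups of a named gene that do not overlap describe its values and are no further test. Many of these genes were named for a small p or a large change. The labels do not say whether the 2 libraries of a group are separate fish or pools, so p-values measure the spread between these libraries, which may be technical. Symbols came from a list of gene names separate from the deposited table, and those in capitals are human-style names for zebrafish genes.

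The markers of the sort were as follows. The reporter's source gene her4.1, a Notch target of radial glia, stood at 9.27 and 9.24 CPM after PBS and 10.5 and 8.92 CPM after IL4, against 964 to 1377 CPM in the 4 GFP-positive libraries. The 39 radial glial markers summed to 4053 to 4282 CPM in GFP-negative and 55280 to 70522 CPM in GFP-positive libraries. Markers of neurons summed to 7150 and 7181 CPM after PBS, those of oligodendrocytes and their precursors to 16283 and 16121, and those of microglia and macrophages to 11674 and 12140. Endothelial markers summed to 611 and 583 CPM, mural and fibroblast markers to 570.4 and 589, and pineal and photoreceptor markers to 1392 and 1388. Lymphocyte markers summed to 465 and 455 CPM and erythrocyte markers to 148 and 164. Pituitary markers, at 13.6 and 12.4 CPM, were near the floor, and 9 of their 13 genes were filtered out for low counts. Each GFP-negative library thus held RNA of neurons, oligodendrocytes, immune, vascular and pineal cells together.

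**Figure D1:**
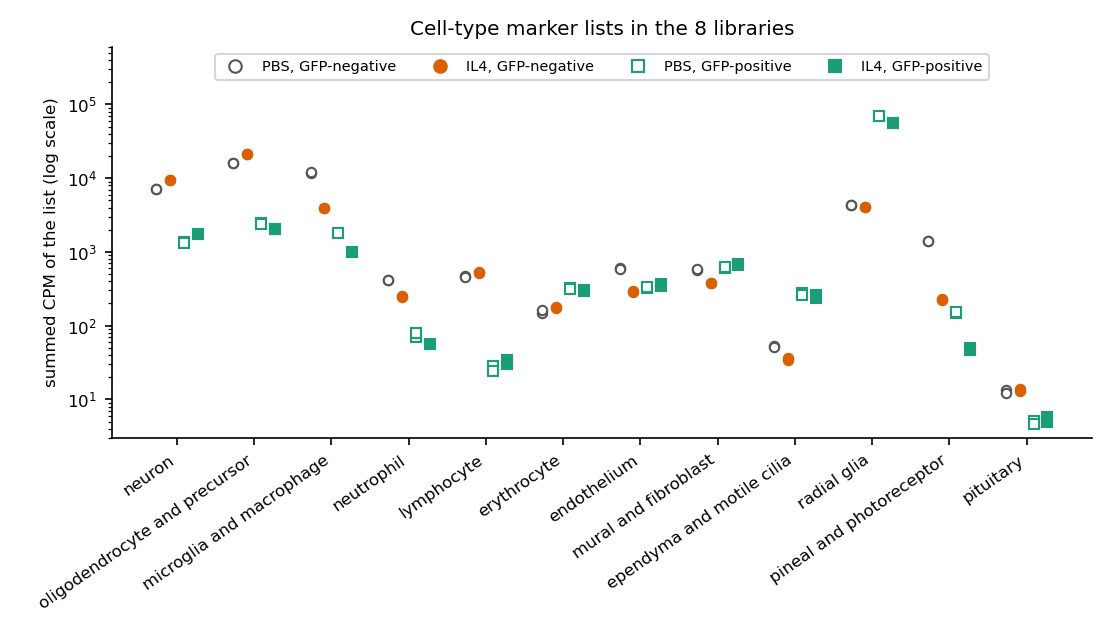
Summed CPM (log scale) of 12 lists of cell-type markers in each of the 8 libraries. Circles are GFP-negative and squares GFP-positive libraries, open after PBS and filled after IL4, with 2 libraries for each. Microglial, endothelial and pineal sums were lower after IL4 than after PBS in both GFP-negative libraries, and neuron and oligodendrocyte sums were higher.

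After IL4, 1853 genes (9.04% of those tested) were higher and 3163 genes (15.4%) were lower in GFP-negative cells. These shares are the background for the counts of each list below. Falls were deeper than rises. The median change was 0.46 among genes that rose and -0.88 among genes that fell, and 197 rose against 1387 that fell by at least 2-fold. The median over all tested genes was -0.02. The number of genes that rose was sensitive to single libraries: it was 1035 without IL4 replicate 1, 984 without IL4 replicate 2, 1147 without PBS replicate 1 and 1257 without PBS replicate 2, and 2914 when the 4 GFP-negative libraries were fitted alone. The number that fell stayed within 1.5 times of 3163 in all of these fits.

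**Figure D2:**
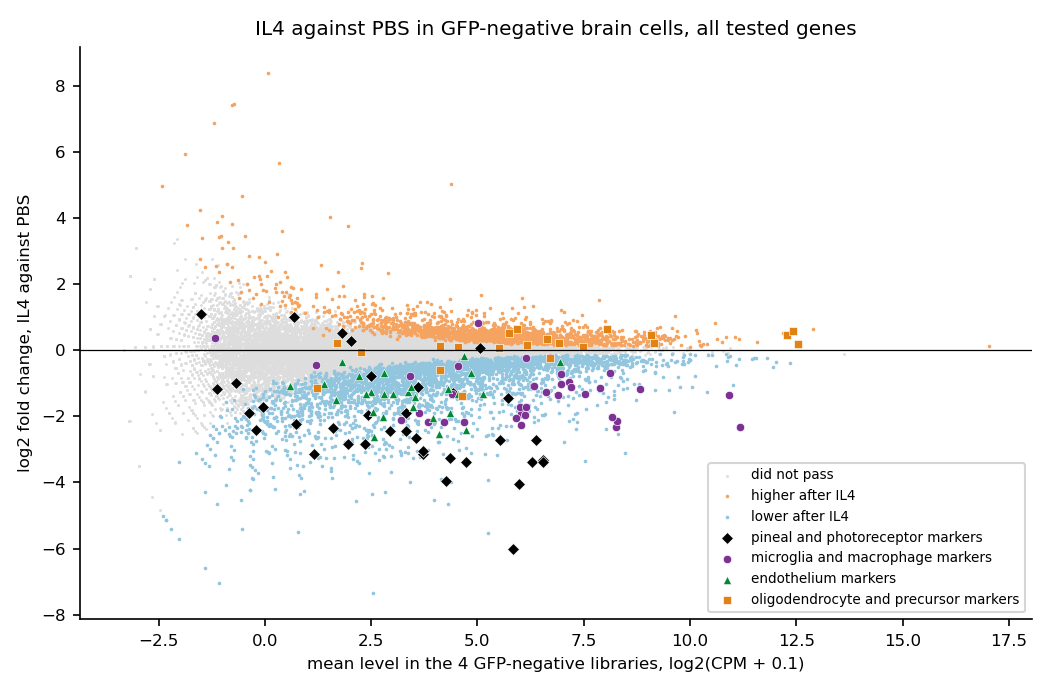
Log2 fold change of IL4 against PBS (vertical) against the mean level over the 4 GFP-negative libraries, log2(CPM + 0.1) (horizontal), for all 20508 tested genes. Small points are genes that passed in either direction or did not pass, and large symbols are markers of 4 cell types. Pineal markers reach -6.02, 26 microglial and 19 endothelial markers fell by at least 2-fold, and the 3 most abundant oligodendrocyte markers lie above 0.

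Pineal and photoreceptor genes fell furthest. The pineal gland is the light-sensitive, melatonin-making organ of the fish brain, and its photoreceptors share the phototransduction machinery of the retina. Of 44 pineal and photoreceptor genes, 37 were tested, 28 fell and 0 rose, with a median of -2.44, and 22 fell by at least 4-fold. The summed level went from 1392 and 1388 CPM to 227 and 225. In bulk samples, fewer cells of a type and less RNA per cell cannot be told apart, and this holds for every cell-type marker below.

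The enzyme gene aanat2 (chromosome 3, 54633180 to 54639104 on GRCz10, plus strand), which catalyses the penultimate step of melatonin synthesis in the pineal gland, stood at 109.7 and 114 CPM after PBS and 1.82 and 1.63 CPM after IL4. The groups lay far apart, and the change was -6.02 ± 0.15. ASMT, the last enzyme of the same pathway, stood at 168 and 172 CPM after PBS and 16.02 and 16.57 CPM after IL4 (-3.38 ± 0.11). Both enzymes at the end of the pathway thus fell, without overlap of the groups. Phototransduction genes moved with them. PDE6H, an inhibitory subunit of the cone phosphodiesterase, went from 119 and 117 to 7.08 and 7.30 CPM (-4.04 ± 0.13). GNAT1, the rod transducin alpha subunit, went from 171 and 167 to 14.8 and 19.2 CPM (-3.32 ± 0.11). PDC, which encodes phosducin, a binding partner of transducin, fell (-4.0 ± 0.30). The photoreceptor transcription factor gene NR2E3 fell by 4.64 ± 0.20 and guca1aa, a guanylate cyclase activator, by 4.54 ± 0.29. PDC, NR2E3 and guca1aa are outside the list and were named for the size of their fall. Of the 37 tested genes of the list, 9 did not pass, among them asmt2 and parietopsin, named after their values were seen. A fold change above 0 was found for 5 of the 37. Another 7 were filtered out for low counts.

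Melatonin is made from serotonin, so pineal cells and the serotonergic neurons of the raphe share the first enzymes of its synthesis. TPH2 (chromosome 18, 17000698 to 17011990, minus strand), a tryptophan hydroxylase, the rate-limiting step of serotonin synthesis, stood at 90.2 and 89.0 CPM after PBS and 11.4 and 15.8 CPM after IL4. It fell by 2.72 ± 0.15 without overlap of the groups. The second hydroxylase gene TPH1 on chromosome 25 went from 32.3 and 28.3 to 11.7 and 13 CPM (-1.29 ± 0.20). TPH1 on chromosome 7, at 0.73 and 1.26 CPM after PBS, did not pass (1.0182 ± 0.49, adjusted p = 0.0358 in the fit of the 4 libraries). Pineal markers fell beside both hydroxylases, and the share of pineal and of raphe cells in their change was not tested. Another 3 serotonergic genes were chosen after their values were seen. DDC, the decarboxylase of the second step, fell by 1.78 (from 39.9 and 48.4 to 12.7 and 13.01 CPM). SLC18A2, the vesicular monoamine transporter, stood at 10.2 in both PBS libraries and at 13.2 and 14.1 CPM after IL4 and did not pass (adjusted p = 0.098, and 0.0196 in the fit of the 4 libraries). FEV, a transcription factor of serotonergic neurons, had 9 and 9 counts after PBS and 3 and 9 after IL4 and was filtered out.

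The serotonin transporter genes and the HTR1 receptor genes of the study question did not pass in the main fit. SLC6A4, the transporter of serotonergic neurons, had 13 and 14 counts after PBS and 11 and 10 after IL4, and its paralogue slc6a4b 21 and 30 against 30 and 21. HTR1A stood at 20.3 and 19.4 CPM after PBS and 27.1 and 24.1 CPM after IL4, with both IL4 libraries above both PBS libraries and an adjusted p of 0.086 (0.37 ± 0.15). It passed in the fit of the 4 libraries (0.39, adjusted p = 0.00789) and by limma voom (adjusted p = 0.0181). HTR1A also passed without PBS GFP-positive replicate 1 and without PBS GFP-positive replicate 2, each time at 0.39. Its paralogue htr1aa was at -0.03 ± 0.21, htr1b at 0.13 ± 0.45 and HTR1D at 0.16 ± 0.30. At the counts of SLC6A4, slc6a4b and htr1b (62 and 61 after PBS for htr1b) the intervals are wide. HTR1A had 528 and 478 counts after PBS and htr1aa 244 and 310. For all of these genes, changes within the interval were not detectable.

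Neurotrophin genes of the study question moved in different directions. BDNF (chromosome 7, 31653833 to 31670520, minus strand), a neurotrophin, stood at 12.7 and 13.4 CPM after PBS and 24.97 and 23.74 CPM after IL4, a rise of 0.90 ± 0.17 without overlap. NTRK2, its receptor kinase gene on chromosome 8, went from 27.0 and 27.9 to 16.8 and 18.9 CPM (-0.62 ± 0.08), and ntrk2b did not pass (0.28 ± 0.18). NGFR on chromosome 12, a low-affinity neurotrophin receptor gene, fell from 7.92 and 5.79 to 1.87 and 1.27 CPM (-2.12 ± 0.51). It did not pass by DESeq2 (adjusted p = 0.375), without IL4 replicate 2 (adjusted p = 0.0923) or without PBS replicate 1 (adjusted p = 0.0774). NGFR on chromosome 3 stood at 49.0 and 39.7 CPM after PBS and 46.6 and 52.8 after IL4, overlapping groups (0.16 ± 0.11). The symbols do not say which of the 2 NGFR genes is ngfra. NTF3, another neurotrophin gene (12 and 7 counts after PBS and 5 and 5 after IL4), was filtered out.

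The receptor for the injected cytokine was lower. The receptor gene il4r.1 (chromosome 3, 43301383 to 43359120, minus strand) stood at 31.3 and 32.7 CPM after PBS and 9.62 and 9.63 CPM after IL4 (-1.73 ± 0.14). The partner chain gene il13ra1 went from 43.1 and 49.2 to 21.6 and 19.6 CPM (-1.16 ± 0.10). The signal transducer gene stat6 (chromosome 23, 27152325 to 27196639) went from 17.99 and 16.003 to 8.27 and 7.52 CPM (-1.11 ± 0.18). All 3 fell without overlap of the groups. The decoy receptor gene il13ra2 did not pass (-1.21 ± 0.46, adjusted p = 0.066) except in the fit of the 4 libraries (adjusted p = 0.00713), by limma voom (adjusted p = 0.0168), without the filter (adjusted p = 0.0426) and without any 1 GFP-positive library. The common gamma chain genes il2rga (-0.38 ± 0.39) and il2rgb (0.53 ± 0.41) did not pass.

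Of 39 genes of the IL4 receptor pathway and its known STAT6 targets, all tested, 12 fell (30.8%) and 4 rose (10.3%), with a median of -0.18. Over all tested genes 15.4% fell and 9.04% rose. The mannose receptor gene mrc1b, a marker of alternative activation in mammalian macrophages, went from 43.1 and 41.0 to 9.45 and 9.85 CPM (-2.12 ± 0.18). SOCS3 on chromosome 12, a feedback inhibitor of JAK kinases, fell by 0.78 ± 0.06 and MYC on chromosome 2, a growth regulator gene, by 0.71 ± 0.04. The 4 that rose were the chemokine gene ccl19a.1, the insulin receptor substrate gene IRS2 on chromosome 9 (0.37 ± 0.07), the kinase gene PIM1 (0.22 ± 0.04) and the arginase gene ARG2 (0.15 ± 0.04), and 7 rose when the 4 libraries were fitted alone. ARG2 did not pass without IL4 replicate 1 (adjusted p = 0.125). ARG1, the arginase used as a marker in mammals and named here after its value was seen, did not pass (-0.37). Microglial markers fell beside this list, from 11674 and 12140 to 3997 and 3943 CPM in sum, and their part in its change was not tested.

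Most microglial genes fell. Microglia are the resident macrophages of the brain and clear debris through complement, lipoprotein and lysosomal genes. Of 37 microglial and macrophage genes, 36 were tested, 31 fell and 1 rose, with a median of -1.33, and 26 fell by at least 2-fold. The apolipoprotein gene apoeb (chromosome 16, 24045712 to 24048429, plus strand), a lipid carrier abundant in zebrafish microglia, stood at 3813 and 3857 CPM after PBS and 792 and 754 CPM after IL4. It fell by 2.31 ± 0.04 without overlap of the groups. The apolipoprotein gene apoc1 went from 488 and 519 to 112 and 118 CPM (-2.13 ± 0.07), and lgals3bp.1, a galectin-binding protein gene, from 507 and 509 to 102 and 101 CPM (-2.32 ± 0.06). For all 3 the IL4 libraries lay close together and far below the PBS libraries.

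The complement component genes c1qa, c1qb and c1qc, which tag debris and synapses for uptake, lie together on chromosome 21 and fell by 2.18 ± 0.16, 2.06 ± 0.11 and 2.25 ± 0.10. For c1qc the level went from 104 and 111 to 22.6 CPM in both IL4 libraries. The class II invariant chain gene cd74a, which chaperones antigen-presenting molecules, went from 2679 and 2870 to 1097 and 1087 CPM (-1.35 ± 0.04). The 1 gene that rose was lyz, lysozyme, also a marker of neutrophils (0.83 ± 0.16). The microglial list also held members that did not pass. Among them, named after their values were seen, were tyrobp, an adaptor of microglial receptors (from 2.81 and 2.27 to 1.99 and 1.76 CPM), and ptprc, which encodes the leukocyte antigen CD45 (-0.23, adjusted p = 0.0212 in the fit of the 4 libraries). The fall was thus not of 1 size over the list, which ran from -2.32 to 0.83.

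Lists that share genes with macrophages fell beside it. Of 39 genes of lysosome and phagocytosis, all tested, 28 fell and 2 rose, with a median of -0.68. The progranulin gene grna went from 253 and 234 to 57.2 and 58.2 CPM (-2.08 ± 0.08) and the lysosomal membrane gene cd68 from 266 and 260.0 to 106 and 104 CPM (-1.33 ± 0.05). PSAP, the precursor of sphingolipid activator proteins, and ctsla, a cathepsin, fell by 0.80 ± 0.04 and 0.83 ± 0.04. Of those that rose, timd4, a phosphatidylserine receptor gene, went from 123 and 125 to 174 and 168 CPM (0.46 ± 0.07), and the count of 2 was 1 without IL4 replicate 2. Of 22 tested genes of lipid efflux and apolipoproteins, 13 fell and 1 rose (median -0.82). The cholesterol efflux transporter gene abca1b went from 92.6 and 98.5 to 25.1 and 28.3 CPM (-1.84 ± 0.10) and the fatty acid carrier gene fabp4a from 969 and 1044 to 433 and 439.6 CPM (-1.21 ± 0.05). Of 27 tested antigen presentation genes, 10 fell and 0 rose (median -0.36). Besides cd74a, the thiol reductase gene ifi30a fell by 1.94 ± 0.08 and the class II gene mhc2dab by 1.15 ± 0.06. Reads of the near-identical mhc2 genes may be shared between copies.

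Among cytokine and complement genes, falls outnumbered rises. Of 43 tested cytokine and chemokine genes, 22 fell (51.2%) and 4 rose (9.3%), with a median of -0.56. Over all tested genes 15.4% fell and 9.04% rose. The chemokine gene ccl34b.1, a microglial marker, went from 438 and 490.0 to 113 and 114 CPM (-2.03 ± 0.07). The neutrophil attractant gene cxcl8b.1 went from 72.3 and 79.8 to 16.3 and 15.21 CPM (-2.27 ± 0.13), and csf3b, a granulocyte growth factor gene, from 21.0 and 24.0 to 2.42 and 2.33 CPM (-3.24 ± 0.22). The chemokine gene cxcl12b, which guides migrating cells, fell by 1.87 ± 0.13. Of those that rose, ccl19a.1, a gene of a lymphocyte attractant, went from 71.2 and 78.4 to 109 and 112 CPM (0.56 ± 0.10), and the count of 4 was 2 without PBS replicate 1. Of 18 tested complement genes, 6 fell (33.3%) and 1 rose (5.6%). The 1 that rose was also among the most abundant genes of the fraction: cd59a (chromosome 7, 38424470 to 38427354, minus strand), which encodes an inhibitor of the membrane attack complex, went from 5798 and 6007 to 9232 and 9213 CPM (0.64 ± 0.03).

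Neutrophil and lymphocyte markers did not move together. Of 9 tested neutrophil markers 7 fell and 1 rose (median -1.12), and 4 fell without IL4 replicate 2. The oxidase subunit gene NCF1, which macrophages also express, fell by 1.27 ± 0.08, and CSF3R, the granulocyte growth factor receptor, by 2.40 ± 0.41. Of 27 tested lymphocyte markers, 5 rose (18.5%), 2 fell (7.4%) and 20 did not pass, with a median of 0.26. Over all tested genes 9.04% rose and 15.4% fell. The antibody heavy chain gene ighm stood at 10.8 and 10.7 CPM after PBS and 25.8 and 23.7 CPM after IL4 (1.2 ± 0.17). The natural killer lysin gene nkl.2 fell by 1.23 ± 0.25, and the 2 falls were 1 with any 1 of the 4 libraries left out. The count of 5 rises was 3 without either IL4 library or without PBS replicate 2, and 8 in the fit of the 4 libraries and by limma voom.

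More NF-kB genes fell than rose, and more interferon genes rose than fell. Over all tested genes 15.4% fell and 9.04% rose. Of 26 tested NF-kB genes 9 fell (34.6%) and 2 rose (7.7%), with a median of -0.35. The receptor adaptor gene MYD88 went from 31.0 and 33.1 to 12.97 and 12.22 CPM (-1.35 ± 0.11), and the inhibitor genes NFKBIE and nfkbiaa each fell by 0.86, with an SE of 0.08 and 0.09. The 2 rises were 1 with any 1 of the 4 libraries left out. Of 32 tested interferon response genes, 8 rose and 3 fell (median 0.20). The ubiquitin-like gene isg15 went from 23.5 and 24.3 to 41.2 and 41.9 CPM (0.80 ± 0.07) and the antiviral gene RSAD2 from 18.1 and 18.3 to 39.6 and 40.0 CPM (1.13 ± 0.10). The interferon-induced gene ifit10 had 0 counts in both PBS libraries and 12 and 34 counts after IL4. The count of 3 falls was 0 without IL4 replicate 1 and 1 without IL4 replicate 2 or PBS replicate 1. With any 1 of the 4 GFP-negative libraries left out, the count of 8 rises was 4 or 5.

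Most endothelial genes fell. Of 28 endothelial genes, 27 were tested, 22 fell and 0 rose (median -1.32), and every tested member had a fold change below 0. The summed level went from 611 and 583 to 283 and 293 CPM. The junction gene pecam1a stood at 48.3 and 40.6 CPM after PBS and 7.50 and 9.19 CPM after IL4 (-2.41 ± 0.17). The glucose transporter gene SLC2A1 on chromosome 23, typical of the blood-brain barrier, went from 30.4 and 27.6 to 4.28 and 5.71 CPM (-2.54 ± 0.21). The receptor genes for vascular endothelial growth factor kdrl and flt1 went from 31.7 and 32.4 to 7.76 and 9.63 CPM (-1.88 ± 0.17) and from 24.8 in both PBS libraries to 5.98 and 6.11 CPM (-2.04 ± 0.18). PBS and IL4 libraries did not overlap for any of these 4 genes, which were named for their small p.

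Mural and matrix genes followed in part. Of 26 mural and fibroblast genes, all tested, 11 fell and 0 rose (median -0.55), and 7 fell without IL4 replicate 2. The fibrillar collagen genes COL1A2, COL1A1 and col1a1a fell (-2.56 ± 0.14, -2.32 ± 0.23 and -3.10 ± 0.32). COL1A2 went from 58.0 and 72.3 CPM to 11.0 CPM in both IL4 libraries. TAGLN on chromosome 5, a smooth muscle actin-binding protein gene, fell by 0.82 ± 0.07. Of 69 tested genes of extracellular matrix and remodelling, 28 fell and 3 rose (median -0.52). The secreted matrix protein gene SPARC went from 43.9 and 44.3 to 19.6 and 16.4 CPM (-1.29 ± 0.08) and the gelatinase gene MMP2 from 34.1 and 33.99 to 15.9 and 16.5 CPM (-1.07 ± 0.09). Among those that rose was hapln1a, which links hyaluronan to proteoglycans, from 3.38 and 2.80 to 9.03 and 7.56 CPM (1.42 ± 0.16), and the count of 3 was 1 without either IL4 library.

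Of 52 tested genes of the transforming growth factor and BMP pathway, 17 fell and 1 rose (median -0.45). SMAD1 and smad9, the BMP-responsive transcription factor genes, fell (-1.5 ± 0.12 and -1.29 ± 0.13). The 1 rise was lost when any 1 of the 4 GFP-negative libraries was left out. The count of 17 falls was 11 without IL4 replicate 1 and 10 without replicate 2. Endothelial and microglial markers fell beside the matrix and growth factor lists, and their part in these changes was not tested.

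**Figure D3:**
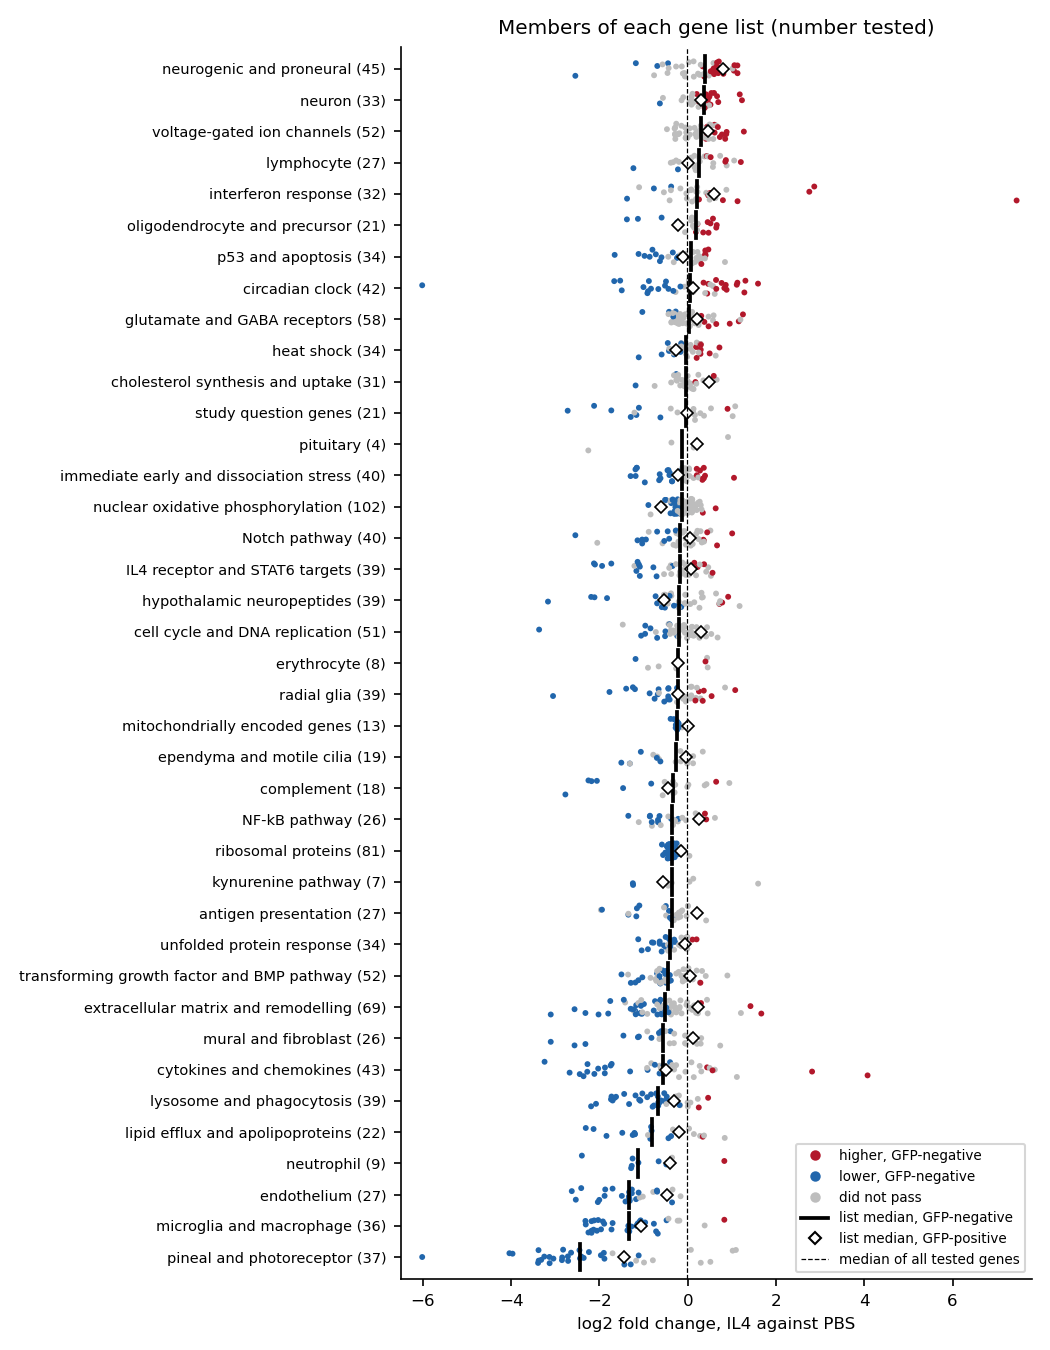
Log2 fold change of IL4 against PBS in GFP-negative cells for the tested members of 39 gene lists, with the number tested. Red points rose, blue points fell and grey points did not pass. The black bar is the list median, the open diamond the same list's median in GFP-positive cells and the dashed line the median of all tested genes, -0.02. The pineal list has the lowest median, -2.44, and the neurogenic list the highest, 0.40.

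Many neuronal genes rose. Of 33 tested neuron markers, 18 rose and 1 fell, with a median of 0.38, and their sum went from 7150 and 7181 to 9464 and 9394 CPM. The RNA-binding protein genes ELAVL3 and ELAVL4, typical of young neurons, went from 589 and 591 to 944 and 926 CPM (0.66 ± 0.04) and from 471 and 486 to 772 and 774 CPM (0.69 ± 0.05). The gene RBFOX3 on chromosome 12, which encodes the neuronal nuclear antigen NeuN, went from 73.0 and 75.2 to 166 and 181 CPM (1.23 ± 0.07). The sodium pump gene atp1a3b was the 1 marker that fell (-0.63 ± 0.06). Of the 33 markers 14 did not pass. Among them were markers of inhibitory neurons such as GAD2, named after its value was seen, and also some markers of excitatory neurons.

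Some neurogenic and ion channel genes also rose, and most members of both lists did not. Of 45 tested neurogenic and proneural genes, 20 rose and 4 fell (median 0.40). The microtubule regulator gene STMN1 on chromosome 16 went from 3875 and 3747 to 5443 and 5492 CPM (0.52 ± 0.03). NEUROD1, a transcription factor of neuronal differentiation, went from 670.2 and 642 to 997 and 984 CPM (0.59 ± 0.04), and the tubulin gene tubb5 rose by 0.58 ± 0.04. The proneural factor gene ascl1a went the other way, from 21.7 and 20.9 to 14.7 and 11.7 CPM (-0.69 ± 0.11), and the count of 4 falls was 1 without IL4 replicate 2 or PBS replicate 1 and 2 without IL4 replicate 1. Of 52 tested voltage-gated ion channel genes, 15 rose and 0 fell (median 0.31), and 26 rose in the fit of the 4 libraries. The calcium channel gene CACNA1A went from 28.2 and 37.2 to 84.3 and 73.4 CPM (1.27 ± 0.13), the sodium channel gene scn1lab rose by 0.85 ± 0.12 and the potassium channel gene kcnc3a by 0.68 ± 0.10.

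Receptor genes for glutamate and GABA were mixed, with 8 of 58 higher (13.8%), 5 lower (8.6%) and a median of 0.04. Over all tested genes 9.04% rose and 15.4% fell, and 45 of the 58 did not pass. Among the 8, GABRA6 on chromosome 21 rose by 1.25 ± 0.22, GRIN2C on chromosome 3 by 1.16 ± 0.14 and GABRA4 by 0.95 ± 0.17, which encode 2 GABA-A receptor subunits and an NMDA receptor subunit. The count of 8 was 4 without IL4 replicate 2 and 5 without PBS replicate 2, and the 5 falls were 1 to 3 with any 1 of the 4 libraries left out. GRIN1, the obligate NMDA receptor subunit, rose by 0.38 ± 0.06 for the gene on chromosome 5.

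Myelin genes rose and a pair of lineage regulators fell. Of 21 tested oligodendrocyte and precursor genes, 9 rose and 4 fell (median 0.19), and their sum went from 16283 and 16121 to 21279 and 21092 CPM. The proteolipid gene plp1b went from 4163 and 4179.7 to 5798 and 5772 CPM (0.47 ± 0.03). The myelin claudin gene CLDN19 rose by 0.66 ± 0.06. The lineage transcription factor genes olig1 and NKX2-2 fell, olig1 from 35.7 and 35.4 to 13.9 and 13.5 CPM (-1.38 ± 0.11) and NKX2-2 by 0.59 ± 0.11. The count of 4 falls was 2 without IL4 replicate 2 or PBS replicate 2.

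Without scaling factors CPM are shares of a library, so a fall of abundant genes raises the share of the rest. The TMM factors used here are meant to correct for such a shift. They were 1.176 and 1.151 for the PBS libraries and 1.184 and 1.183 for the IL4 libraries. With library totals in place of TMM the median of all genes moved by 0.024 and with relative log expression factors by 0.016. How far such a shift remained in the levels given here was not tested. Whether neurons and oligodendrocytes made up more of the sorted cells after IL4, or held more of these RNAs per cell, cannot be told apart in these libraries.

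Radial glial markers were at low levels and did not move as 1 group. Of 39 genes, 17 fell and 6 rose, with a median of -0.22. The change differed from that in GFP-positive cells for 26 of the 39, and for 18.7% of all tested genes. The lactadherin gene mfge8a went from 49.8 and 51.3 to 13.9 and 15.6 CPM (-1.77 ± 0.06) and the gap junction gene GJA1 from 71.5 and 76.1 to 44.4 and 43.3 CPM (-0.75 ± 0.04). The intermediate filament gene nes rose from 16.9 and 17.5 to 32.9 and 39.6 CPM (1.08 ± 0.10). GFAP and her4.1, named after their values were seen, did not pass. The gene her4.2 rose by 0.36 ± 0.05, where reads may be shared among the near-identical her4 copies. Of 40 tested Notch pathway genes, 10 fell and 5 rose (median -0.18). The ligand gene dll4, active in vessels, fell by 1.03 ± 0.16 and the receptor gene NOTCH1 on chromosome 21 by 0.42 ± 0.09. The 5 rises were 2 without IL4 replicate 2, and the 10 falls were 6 without either IL4 library or without PBS replicate 1. Of 19 tested ependymal genes 5 fell (26.3%) and 0 rose, with FOXJ1, the regulator of motile cilia, at -1.06 ± 0.14. Fewer fell when any 1 of the 4 libraries was left out.

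Few cell cycle genes passed. Of 51 tested genes 10 fell and 0 rose (median -0.20), near the 15.4% of all genes that fell. The replication helicase genes MCM2, MCM5 and MCM4 fell by 0.96 ± 0.12, 1.06 ± 0.19 and 0.97 ± 0.19, MCM2 from 25.6 and 23.5 to 11.0 and 14.2 CPM. The count was 5 without IL4 replicate 1 and 6 without IL4 replicate 2 or PBS replicate 1.

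Stress genes were divided by kind. Of 34 tested genes of the unfolded protein response, 19 fell and 2 rose (median -0.40). HSPA5, the main chaperone of the endoplasmic reticulum, stood at 1484 and 1424 CPM after PBS and 680.2 and 657 CPM after IL4 (-1.12 ± 0.04). HSP90B1 and PDIA4, a chaperone and a disulfide isomerase of the same compartment, fell by 0.59 ± 0.04 and 0.81 ± 0.06. The stress transcription factor gene DDIT3 rose by 0.20 ± 0.04, and 1 of the 2 rises was lost without either IL4 library or without PBS replicate 1. Of 34 tested heat shock genes, 10 fell and 9 rose (median -0.03). The small heat shock gene HSPB1 went from 304 and 329 to 147 and 146 CPM (-1.11 ± 0.05), while the cytosolic chaperone genes HSP90AA1 and HSPH1 rose by 0.26 ± 0.03 and 0.50 ± 0.08. The count of 10 was 6 without IL4 replicate 2.

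Of 40 tested immediate early and dissociation stress genes, 18 fell and 9 rose (median -0.12). NPAS4 on chromosome 14, a transcription factor gene induced by neuronal activity, went from 506 and 542 to 1082 and 1086 CPM (1.05 ± 0.05). CEBPB, a transcription factor of myeloid and stressed cells, went from 469 and 478 to 205 and 213 CPM (-1.18 ± 0.04), and the phosphatase gene DUSP1 from 359.9 and 339 to 139 and 146 CPM (-1.29 ± 0.06). FOSL1 fell by 1.15 ± 0.06 and egr4 rose by 0.39 ± 0.05. Such genes also respond to tissue dissociation, and its part was not tested. Of 34 p53 and apoptosis genes, 11 fell and 6 rose (median 0.08). The survival genes mcl1a and mcl1b fell by 0.80 ± 0.04 and 0.63 ± 0.04 and the cell cycle inhibitor gene cdkn1a by 1.66 ± 0.21. The 6 rises were 3 without IL4 replicate 1 or PBS replicate 1, and the 11 falls were 7 without IL4 replicate 1 or PBS replicate 2.

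Ribosomal protein genes shifted by a small and even amount. Of 81 genes, all tested, 78 fell and 0 rose, with a median of -0.36 and a range from -0.58 to 0.04. The gene rps20 went from 657 and 719 to 492 and 501 CPM (-0.47 ± 0.04). Their sum went from 23909 and 26271 to 19321 and 19722 CPM, with the PBS libraries apart from each other and both above the IL4 libraries. Of the 13 mitochondrially encoded genes, 11 fell and 0 rose (median -0.24). MT-CO1, an oxidase subunit gene, stood at 5300.3 and 6521 CPM after PBS and 4552 and 4482 CPM after IL4 (-0.39 ± 0.06), again with PBS replicate 2 above replicate 1. It did not pass by limma voom (adjusted p = 0.112), without the filter on low counts (adjusted p = 0.0872) or in the fit of the 4 libraries (adjusted p = 0.0869), and the count of 11 was 7 without PBS replicate 2 or by limma voom. Of 102 tested nuclear genes of oxidative phosphorylation, 23 fell and 2 rose (median -0.13), and 11 fell without PBS replicate 2, 13 without IL4 replicate 1 and 12 without IL4 replicate 2. The 2 rises were 5 without PBS replicate 2 and 1 without any other of the 4 libraries.

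Few cholesterol genes passed. Of 31 genes 2 fell (6.5%) and 3 rose (9.7%), with a median of -0.03. HMGCS1, the enzyme that commits acetyl units to the sterol pathway, was an exception, from 87.1 and 86.4 to 38.3 and 38.2 CPM (-1.18 ± 0.07). ELOVL6, a fatty acid elongase gene, rose by 0.59 ± 0.07. Without IL4 replicate 2 the list held 1 rise and 1 fall, without IL4 replicate 1 it held 1 rise, and without PBS replicate 1 it held 1 fall. Of 7 tested kynurenine pathway genes, KMO and HAAO fell by 1.24 each, with an SE of 0.41 and 0.40, and 0 of the 7 passed without IL4 replicate 1 or 2, without PBS replicate 2 or by DESeq2, and 1 passed without PBS replicate 1.

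Circadian clock genes changed in both directions. In the clock, CLOCK and BMAL proteins drive PER, CRY and NR1D genes, whose products repress them, and D-box factors such as NFIL3 and DBP form a second arm. Of 42 genes, all tested, 14 rose and 15 fell. The cryptochrome gene cry3a went from 40.1 and 37.8 to 92.4 and 101 CPM (1.31 ± 0.08) and PER2, a light-inducible period gene in zebrafish, from 70.13 and 65.31 to 125 CPM in both IL4 libraries (0.88 ± 0.07). The D-box repressor genes nfil3-5 and NFIL3 rose by 1.28 ± 0.11 and 0.83 ± 0.09, and rorcb, an orphan receptor gene, by 1.59 ± 0.28. The repressor genes ciarta and BHLHE41 went from 245 and 243 to 131 and 127 CPM (-0.91 ± 0.05) and from 481 and 462 to 252 and 260.4 CPM (-0.88 ± 0.06), and the D-box activator gene dbpb fell by 0.90 ± 0.08. Over all genes that rose in GFP-negative cells 43.2% also rose in GFP-positive cells, and of all that fell 34.5% also fell there. Of the 29 clock genes that passed, 21 passed in the same direction in GFP-positive cells and 1 in the opposite one. The labels give no hour of collection, so time of day and treatment cannot be told apart for these genes, and aanat2, which oscillates in the pineal gland, is among them.

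**Figure D4:**
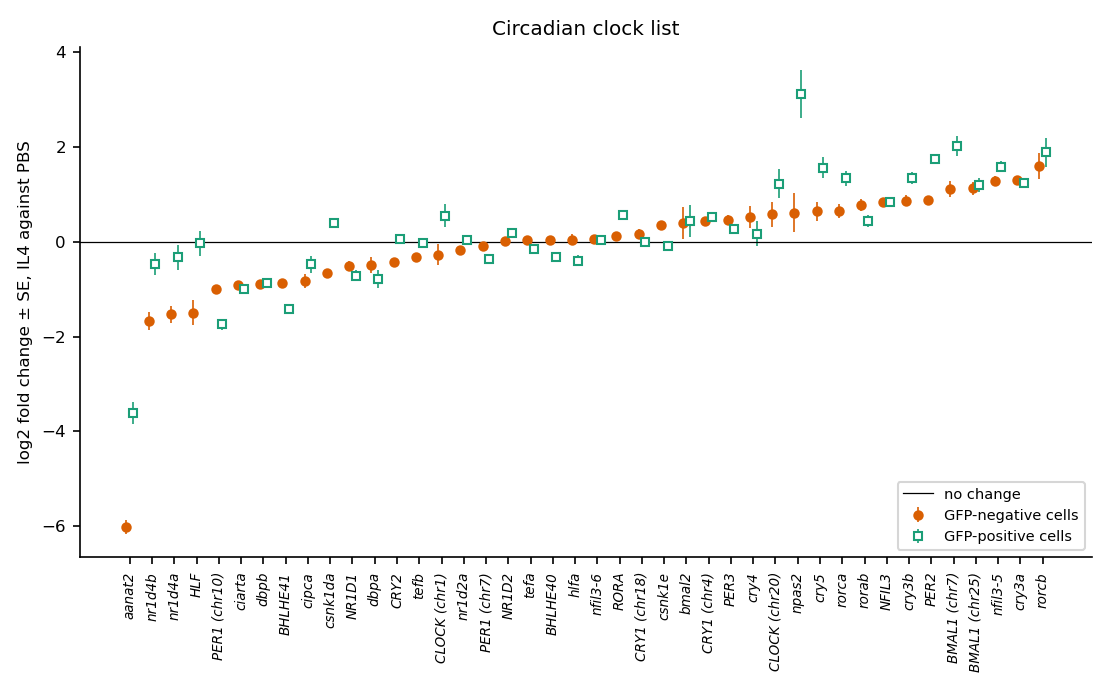
Log2 fold change ± SE (edgeR, n = 2 against 2) of IL4 against PBS for the 42 tested genes of the circadian clock list, in GFP-negative cells (filled circles) and GFP-positive cells (open squares), ordered by the GFP-negative value. The value runs from -6.02 for aanat2 to 1.59 for rorcb, and most genes lie on the same side of 0 in both fractions.

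Hypothalamic neuropeptide genes fell more often than they rose, as did all tested genes. Of 39 tested genes 13 fell (33.3%) and 3 rose (7.7%), with a median of -0.20, and 6 were filtered out. Over all tested genes 15.4% fell and 9.04% rose. The oxytocin gene oxt went from 45.0 and 51.7 to 10.0 and 11.2 CPM (-2.19 ± 0.11) and avp, the vasopressin gene, from 4.88 and 9.97 to 0.68 and 0.97 CPM (-3.17 ± 0.44). The melanin-concentrating hormone gene pmchl went from 69.1 and 82.9 to 19.4 and 23.4 CPM (-1.83 ± 0.17), while its relative PMCH rose from 10.3 and 10.2 to 16.9 and 16.7 CPM (0.72 ± 0.24). PMCH did not pass with any 1 of the 4 libraries left out (adjusted p = 0.152 to 0.179) or by DESeq2 (adjusted p = 0.0566). The urocortin gene UCN rose by 0.92 ± 0.16. The 13 falls were 6 without IL4 replicate 1 and 8 without IL4 replicate 2 or PBS replicate 2, and the 3 rises were 1 without IL4 replicate 2 or PBS replicate 1 and 6 in the fit of the 4 libraries. Such genes are confined to small nuclei, and how evenly those nuclei were recovered was not tested.

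The largest rises included genes with low levels after PBS and others, such as krt5, with higher levels. The gene wu:fk65c09 (chromosome 1, 58386178 to 58392975, minus strand) had 31 counts in each PBS library and 1028 and 845 after IL4, or 1.19 and 1.26 against 43.6 and 37.1 CPM (5.04 ± 0.21). The gene icn2, of a calcium-binding ictacalcin, rose by 2.33 ± 0.29, and the tight junction gene cldna by 1.67 ± 0.16. Keratin genes stood on this side, with krt5 from 114 and 128 to 353 and 338 CPM (1.51 ± 0.10), krt91 from 30.5 and 36.2 to 103 and 95.9 CPM (1.58 ± 0.10) and krt97 rising by 1.36 ± 0.21. In contrast krt8, another keratin gene, went from 330.3 and 347 to 109 and 105 CPM (-1.66 ± 0.05). OLFM2 on chromosome 1, an olfactomedin gene, rose by 1.57 ± 0.26, with PBS at 6.54 and 14.1 CPM, and did not pass in the fit of the 4 libraries (adjusted p = 0.148). The non-coding transcript malat1, the most abundant one named here, went from 123409.9 and 130591 to 141069 and 139143 CPM (0.14 ± 0.03, adjusted p = 0.0511 by limma voom).

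Among the largest falls outside the pineal list, paplnb, a papilin gene, had 582 counts over the PBS libraries and 3 over the IL4 libraries, a ratio of 177.3 with a 95% counting interval from 60.4 to 862.4. COL10A1 on chromosome 20, a short-chain collagen gene, went from 75.2 and 72.9 to 1.57 and 1.63 CPM (-5.53 ± 0.23). KERA, the keratocan gene of connective tissue, fell by 4.36 ± 0.50, with IL4 libraries at 22 and 2 counts, and teni.1 by 3.98 ± 0.26. By size of change in CPM the ferritin gene fthl27 (2673 and 2851 to 1341 and 1342 CPM, -1.04 ± 0.04) and the actin gene actb1 (4508 and 4755 to 3266 and 3222 CPM, -0.51 ± 0.03) were among the 6 that lost most. Of the 1387 genes that fell by at least 2-fold, 184 (13.3%) were in any of the 39 lists.

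**Figure D5:**
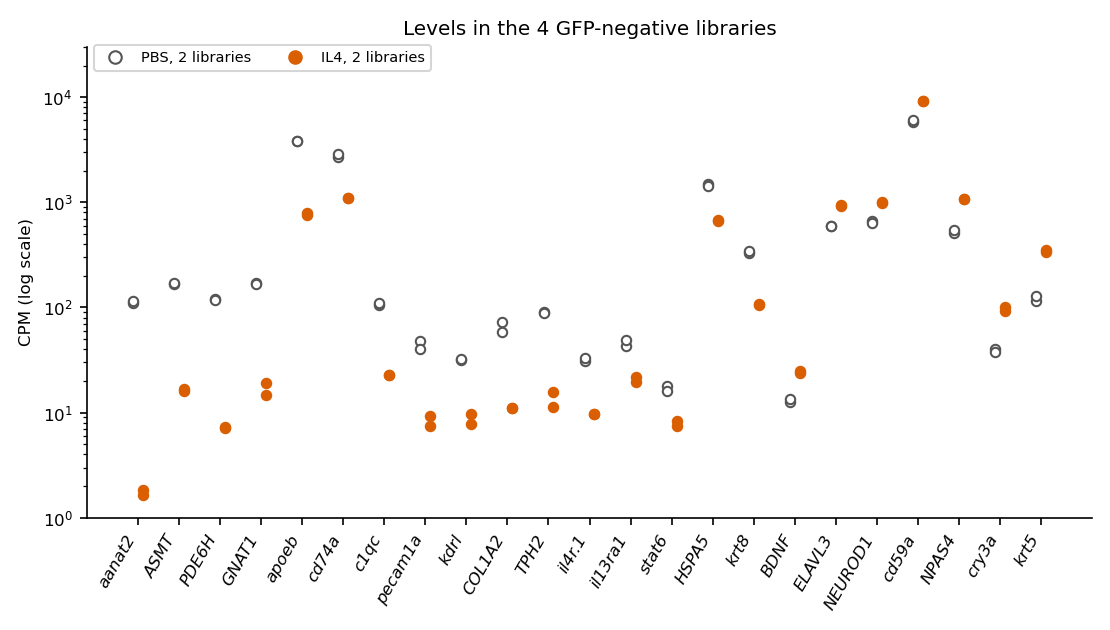
CPM (log scale) of 23 named genes in the 4 GFP-negative libraries, open circles for PBS and filled circles for IL4. No gene shown has overlapping groups. The first 16 were lower after IL4 and the last 7 were higher.

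The same contrast in GFP-positive cells gave 2847 genes higher (13.9%) and 3042 lower (14.8%). Of the genes that rose in GFP-negative cells 801 also rose in GFP-positive cells, which is 43.2% of the first list and 28.1% of the second, and 170 fell there. Of those that fell, 1090 fell in both, 34.5% and 35.8% of the lists, and 284 rose in GFP-positive cells. The change itself differed between fractions (interaction test) for 3843 genes (18.7%), among them 570 of the genes that rose (30.8%) and 1428 of those that fell (45.1%).

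The receptor chain genes il4r.1 and il13ra1 and the transducer gene stat6 fell in GFP-negative cells, and their change differed in GFP-positive cells. The change of il4r.1 was 0.15 ± 0.14 in GFP-positive cells, a difference of -1.88 (adjusted p = 8e-07), that of il13ra1 was 0.36 ± 0.09 (difference -1.52) and that of stat6 was 0.53 ± 0.19 (difference -1.64). HSPA5 stood at 0.02 ± 0.04 in GFP-positive cells (difference -1.14), HMGCS1 rose there by 0.84 ± 0.07 (difference -2.02), and SMAD1 rose there by 0.42 ± 0.09 (difference -1.92). Of the 26 matrix genes with a called difference, 25 were lower in GFP-negative relative to GFP-positive cells, COL1A2 by -2.18. Of the 14 cell cycle genes with a called difference, 13 were lower in GFP-negative relative to GFP-positive cells, MCM2 by -1.27. The matrix list had 69 tested genes and the cell cycle list 51, and 18.7% of all tested genes had a called difference. How the called differences of all genes split by direction was not counted, so the directions in these lists have no background.

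The genes with the smallest interaction p included sdc4, a heparan sulfate proteoglycan gene (-1.10 ± 0.04 in GFP-negative cells, against 0.18 ± 0.03 in the other fraction), and ZFP36L1 on chromosome 20, an RNA decay factor gene (-1.34 ± 0.04 and 0.26 ± 0.04). The death receptor gene tnfrsfa fell by 1.94 ± 0.09 in GFP-negative cells and rose by 0.59 ± 0.08 in GFP-positive cells, and the selenoprotein gene selenop fell by 1.27 ± 0.05 and rose by 0.16 ± 0.05. On the other side, cd59a rose in GFP-negative cells and fell by 0.79 ± 0.03 in GFP-positive cells (difference 1.43), and plp1b rose in the first and fell by 0.44 ± 0.03 in the second (difference 0.91). The heat shock gene hsp70.1 fell in both (-0.45 ± 0.04 and -1.62 ± 0.04), where reads may be shared among hsp70 copies. The gene oxt fell in both too (-2.19 ± 0.11 and -6.43 ± 0.15), a difference of 4.24.

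Many pineal and microglial genes fell in both fractions. Over all genes that fell in GFP-negative cells 34.5% fell in both, and 18.7% of all tested genes had a called difference. In GFP-positive cells the pineal list had a median of -1.45, with 19 genes lower in both, and 9 of its genes had a called difference. There aanat2 fell by 3.62 ± 0.23 (difference -2.40) from 8.55 and 7.06 CPM. The microglial list had a median of -1.07 in GFP-positive cells, 28 genes were lower in both, and for apoeb the fall was 1.82 ± 0.04 (difference -0.49). Summed microglial markers in GFP-positive libraries were 1820.3 and 1816 CPM after PBS and 989.5 and 983 CPM after IL4. Endothelial genes had a median of -0.48 there. Of the 22 that fell in GFP-negative cells, 3 fell in both fractions and 2 rose in GFP-positive cells. Summed endothelial markers in GFP-positive libraries were 322.5 and 332.1 CPM after PBS and 370.3 and 345.4 CPM after IL4. For kdrl the change in GFP-positive cells was -0.25 ± 0.27, a difference of -1.63 (adjusted p = 0.0012).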

How the data were processed

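The deposited table held whole-number read counts per gene for 8 libraries, made by the authors with featureCounts on zebrafish build GRCz10 (danRer10), per the submitters' processing notes. The aligner, the use of strand and multi-mapping reads, and versions are not given in the sources used here. All 8 count columns matched a library, and 0 were left over. Of 31388 genes, 25925 had a symbol in the separate list of gene names. Of these, 4151 shared it with another gene and were told apart by identifier. Coordinates are those of the deposited table.

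Counts were analysed in R 4.3.3 with edgeR 4.0.16. The filter filterByExpr (minimum count 10) kept 20508 genes and removed 10880. TMM factors scaled the libraries, and a quasi-likelihood fit of 4 group means to all 8 libraries left 4 residual degrees of freedom (common dispersion 0.00816). The IL4 change in GFP-negative cells and its difference from that in GFP-positive cells were tested, two-sided, with Benjamini-Hochberg adjustment over all tested genes and a threshold of 0.05. The SE is the absolute log2 fold change divided by the square root of F. Replicates differed by more than counting noise, with a chi-square per gene of 2.77 for IL4 and 4.93 for PBS in GFP-negative cells. Counting intervals (95%) cover counting error only.

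On simulated counts for this comparison, 24% of changes of 0.5 and 71% of changes of 1 on the log2 scale were recovered. The simulation changed 100 genes of each size among 20230 tested, whereas 5016 genes passed in the data. The adjustment is stricter where fewer genes change, so these shares do not measure recovery in the data. Alternatives were DESeq2 1.42.0, limma 3.58.1 (voom), RLE factors, library totals, 2 other filters, the 4 GFP-negative libraries alone, a replicate block and leaving out each library. The gene lists were chosen with earlier results of these data known. The genes named were those with the largest changes in fold or in level, the members of each list with the smallest p, the genes of the study question and those that differed most between the fractions. Genes outside this rule were chosen after their values were seen. They include her4.1, GFAP, GAD2, asmt2 and parietopsin. A few genes of the lists are not reported here by name. No sequence is shown, since no sequence table was used here.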

Additional observations from a re-analysis of the deposited data

Results flagged for a closer look

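For each gene below, the change after IL4 in GFP-negative cells differed from the change in GFP-positive cells by edgeR's test of the interaction (adjusted p under 0.05 over all tested genes, n = 2 in each of the 4 groups). Values are the log2 fold change in GFP-negative cells minus that in GFP-positive cells, so a negative value means a lower change in GFP-negative cells. Groups of 2 were too small for a test of outlying samples.

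Among pineal, clock and serotonergic genes the difference was -1.81 for NR2E3, -2.0 for PDE6H, -2.40 for aanat2, -2.38 for guca1aa and -1.26 for ASMT. It was -0.84 for GNAT1, -0.87 for PER2 and 0.53 for BHLHE41. For TPH2 it was -1.12, for DDC -1.93 and for HTR1A 1.09. In the neurotrophin group it was -0.32 for NTRK2 and -3.34 for NGFR on chromosome 12.

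In the receptor pathway and its targets the difference was -1.88 for il4r.1, -1.52 for il13ra1, -1.64 for stat6, -1.17 for SOCS3, -0.35 for MYC and 0.20 for PIM1. Among immune genes it was -0.49 for apoeb, -0.32 for cd74a, -0.74 for c1qb, -1.14 for cd68, -0.67 for ptprc and -0.69 for mhc2dab. It was -1.03 for grna, -0.40 for PSAP, -0.70 for ctsla, 1.04 for timd4, -1.74 for abca1b and -0.61 for fabp4a. The chemokine genes ccl19a.1 and cxcl12b stood at 1.11 and -1.38, MYD88 at -1.16, NFKBIE at -0.43, isg15 at 0.78 and lgals3bp.1 at -0.37. For cd59a the difference was 1.43. The fitted value of 5.93 for ifit10 rests on 0 counts in both GFP-negative PBS libraries and is not a bound.

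Among vascular, matrix and growth factor genes the difference was -1.67 for flt1, -1.63 for kdrl, -1.45 for SLC2A1, -2.66 for COL1A1, -2.18 for COL1A2 and -2.38 for col1a1a. It was -0.38 for TAGLN, -0.71 for SPARC, -1.05 for MMP2, 1.39 for hapln1a, -1.92 for SMAD1 and -1.38 for smad9. The collagen gene COL10A1 stood at -5.21 and the papilin gene paplnb at -6.02.

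Among neuronal and myelin genes the difference was 1.01 for RBFOX3, -0.64 for ELAVL3, -0.58 for GAD2, 0.34 for STMN1, -0.19 for NEUROD1, -0.39 for tubb5 and -1.36 for ascl1a. It was 1.83 for CACNA1A and 0.40 for GRIN1 on chromosome 5. For the peptide genes PMCH and oxt it was 5.28 and 4.24, where oxt fell in both fractions and PMCH fell by 4.57 in GFP-positive cells. Myelin genes stood at 0.91 for plp1b and 0.59 for CLDN19, and olig1 at -0.66.

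Among glial, Notch, cilia and cell cycle genes the difference was -1.09 for mfge8a, -0.54 for GJA1, 1.14 for nes, 0.53 for her4.1 and 0.62 for her4.2. It was -2.10 for dll4, -0.76 for NOTCH1, -1.06 for FOXJ1, -1.27 for MCM2, -1.28 for MCM4 and -1.74 for MCM5.

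Among stress genes the difference was -1.14 for HSPA5, -0.37 for HSP90B1, -0.65 for PDIA4, 0.75 for HSP90AA1, 0.97 for HSPH1 and 1.17 for hsp70.1. It was -0.39 for CEBPB, -1.07 for DUSP1, -1.36 for FOSL1, 0.25 for NPAS4, 1.01 for egr4 and -0.39 for mcl1a. Metabolic and translation genes stood at -2.02 for HMGCS1, 0.53 for ELOVL6, -0.37 for rps20 and -0.59 for MT-CO1. Among the remaining genes it was 2.84 for krt5, 1.35 for krt91, 4.24 for krt97, -1.62 for krt8, 3.29 for cldna and 1.73 for OLFM2. It was -0.47 for actb1, -0.80 for fthl27, 0.12 for malat1, -1.60 for ZFP36L1, -1.29 for sdc4, -1.43 for selenop and -2.53 for tnfrsfa.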

How the results depend on the processing

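In the fit of the 4 GFP-negative libraries alone, 2914 genes were higher after IL4 in place of 1853, and 310 in place of 197 were higher by at least 2-fold. With any 1 of the 8 libraries left out, 984 to 2346 genes were higher, 2199 to 3281 lower, 109 to 256 higher and 1087 to 1432 lower by at least 2-fold, and 2515 to 3898 differed between the fractions. Where 1 library of a group was left, its spread was taken from the other groups. Under DESeq2, limma voom, either other filter, RLE factors and library totals, these counts stayed within 1.5 times. With the replicate number as a block, 1750 genes were higher and 3067 lower, and this replicate block changed no call among the 172 tested genes named here. The labels state no pairing, and the deviations of same-numbered libraries correlated at -0.0106 to 0.00662.

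Of the 151 named genes that passed, 8 lost their call under at least 1 of the 16 settings, and 5 of these with a library left out; each is given with its values above. Among genes that did not pass, direction turned for some with a library left out: the log2 change ran from -0.12 to 0.40 for HTR1D, -0.23 to 0.19 for htr1aa and -0.085 to 0.32 for htr1b. It ran from -0.0014 to 0.91 for il2rgb, -0.15 to 0.44 for slc6a4b, -0.055 to 0.18 for her4.1 and -0.19 to 0.61 for GFAP. The cause of these shifts was not tested. Genes at a few counts a library limit what depth allows, and smaller changes were not detectable there.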
